A study of Mus musculus with 2 samples.

Results

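The collagen and laminin genes of the mouse were followed across the cell classes of the newborn cerebellum in 2 single-cell RNA libraries. Members were taken by gene symbol alone (Col, a number, a and a number, or Lama, Lamb or Lamc with a number), which gave 55 of the 32285 genes listed, 44 collagen and 11 laminin chains. Collagen chains wind into trimers. Fibrillar collagens form cable-like fibres, collagen IV forms the sheet of basement membranes, and other collagens sit on fibres, join membranes to tissue or span the plasma membrane. Laminins are secreted trimers of an alpha, a beta and a gamma chain that start basement membrane assembly and are read by integrins and dystroglycan. In the cerebellum they line the blood vessels and the pial surface, to which the endfeet of the radial (Bergmann) glia attach and along which the granule cell progenitors of the external granular layer lie.

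The 2 libraries were a Cxcr4+/1013 library and a Cxcr4+/+ library, 1 per genotype, both from lobules III-IV of the cerebellum at P1 (postnatal day 1), with the strain label B6.129S2-Cxcr4tm1.1Bala for both. CXCR4 is the receptor of the chemokine CXCL12, and the 1013 allele, carried here in 1 copy beside a normal one, truncates its cytoplasmic tail. The controls were littermates. The protocol wording gives the mutants as Cxcr4+/-, the genotype label as Cxcr4+/1013, and the genotype label was used; the sources used here do not say how many animals stand behind a library. With no replicate of either genotype no test was possible, and every difference below is one between 2 libraries, given with a 95% interval that covers counting error only.

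The Cxcr4+/1013 library held 126145234 UMIs (unique molecular identifiers, 1 per captured transcript) in 8194 filtered barcodes, against 114764187 UMIs in 8353 barcodes of the Cxcr4+/+ library, and 25 barcode sequences occurred in both libraries. Barcodes were assigned by lists of marker genes that held no collagen or laminin, 12 of the resulting classes are described, and a class name such as fibroblast-like says which list a cell carried. Of the rest, 1775 Cxcr4+/1013 barcodes (21.7%) and 2425 Cxcr4+/+ barcodes (29.0%) joined no class, and 548 Cxcr4+/1013 and 491 Cxcr4+/+ barcodes fell between classes. The levels of the markers themselves in a class are fixed by this rule and were not used as a check of its name. CPM are UMIs of a gene per 1000000 UMIs of all genes in the same cells. Each transcript gives 1 tag at its 3′ end, so CPM were not divided by gene length, and the sources used here do not say whether intronic reads were counted. Cerebellar types were present in both libraries, among them 2288 Cxcr4+/1013 and 1685 Cxcr4+/+ granule neuron-like cells and 476 Cxcr4+/1013 and 502 Cxcr4+/+ Purkinje-like cells.

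The start regions of 4 genes are shown because these genes recur in the results. Col4a1 and Col4a2 were both highest in mural-like cells, whereas Col1a2 was detected in glia almost without Col1a1 and Col3a1. Whether these letters bear on the levels was not tested, and Col1a1 had no window in the table. The sequences are RefSeq windows on GRCm38.p6, from 250 bases before to 50 bases after the annotated start, read 5′ to 3′ on the strand of the gene, and 40 of the 55 members had such a window. Col4a1 lies on the minus strand (window chr8:11312777-11313076) and Col4a2 on the plus strand (chr8:11312555-11312854). They run head to head with annotated starts 21 bases apart, each start lying inside the other gene, so that their first bases overlap. The 78 bases in capitals are the stretch that both windows share, each read on its own strand. That stretch is made up of the parts of the windows after the starts, and its length follows from the window size.
Col4a1: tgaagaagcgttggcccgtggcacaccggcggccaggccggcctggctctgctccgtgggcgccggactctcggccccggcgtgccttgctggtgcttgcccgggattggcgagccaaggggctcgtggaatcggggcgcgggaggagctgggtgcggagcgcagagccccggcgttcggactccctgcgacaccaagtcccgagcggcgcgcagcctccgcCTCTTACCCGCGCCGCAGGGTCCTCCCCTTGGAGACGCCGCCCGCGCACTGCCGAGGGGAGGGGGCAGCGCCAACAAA
Col4a2: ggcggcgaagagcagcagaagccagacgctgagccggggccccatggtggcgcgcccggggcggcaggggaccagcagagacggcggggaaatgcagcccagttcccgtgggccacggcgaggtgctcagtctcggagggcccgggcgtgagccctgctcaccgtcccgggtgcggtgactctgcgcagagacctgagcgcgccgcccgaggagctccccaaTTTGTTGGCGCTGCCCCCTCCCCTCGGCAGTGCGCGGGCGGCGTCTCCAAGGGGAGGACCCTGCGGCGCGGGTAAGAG
Col1a2 (chr6:4505368-4505667, plus strand) and Col3a1 (chr1:45311288-45311587, plus strand) lie on different chromosomes. Here capitals mark the letters CCAAT on either strand.
Col1a2: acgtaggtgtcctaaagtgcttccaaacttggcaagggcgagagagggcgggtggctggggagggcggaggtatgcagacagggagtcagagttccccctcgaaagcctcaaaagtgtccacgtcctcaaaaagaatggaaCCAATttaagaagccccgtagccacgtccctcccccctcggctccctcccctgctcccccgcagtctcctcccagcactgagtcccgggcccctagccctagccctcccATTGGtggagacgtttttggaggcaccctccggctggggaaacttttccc
Col3a1: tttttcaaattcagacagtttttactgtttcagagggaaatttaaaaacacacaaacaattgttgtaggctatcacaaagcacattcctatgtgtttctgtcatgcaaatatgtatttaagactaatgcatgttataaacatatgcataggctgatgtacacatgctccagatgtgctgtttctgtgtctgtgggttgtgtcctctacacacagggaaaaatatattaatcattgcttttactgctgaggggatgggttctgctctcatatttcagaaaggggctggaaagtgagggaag
CCAAT was found on either strand in all of these windows but that of Col3a1, and in 37.4% of the 32851 promoter windows of the same length. The Col3a1 window held TATAAA at 117 bases before the start, a run of letters found on either strand in 13.6% of all windows. The windows of Col4a1 and Col4a2 were 74.0% and 73.7% G and C, that of Col1a2 61.0% and that of Col3a1 37.7%.

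Over all filtered barcodes the collagen and laminin genes were lower in the Cxcr4+/1013 library. They summed to 545 CPM in the Cxcr4+/1013 library (95% interval 541 to 549) and 1031 CPM in the Cxcr4+/+ library (1025 to 1037), a ratio of 0.529 (0.524 to 0.534). All 55 members had a UMI in each library, and 54 reached the floor of 50 UMIs over both libraries that a comparison needed; Col10a1, the hypertrophic cartilage collagen, had 7 UMIs in Cxcr4+/1013 and 11 in Cxcr4+/+ and was not compared. Of the 54, 24 were at least 1.5-fold lower and 0 at least 1.5-fold higher in Cxcr4+/1013, where 6.92% of the 19414 genes compared were that much lower, 2.19% that much higher and 9.11% either. The median log2 ratio of the members was -0.51, against -0.01 over all genes compared. The interval of a ratio says nothing of animals or dissections, and in sums over all barcodes fewer cells of a type and less RNA per cell cannot be told apart.

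The lowest ratios of single genes were those of the collagen I and III chains, the fibrillar collagens of connective tissue. Col1a1, a chain of collagen I (chr11:94936224-94953042, plus strand), was at 9.47 CPM in Cxcr4+/1013 and 59.1 CPM in Cxcr4+/+, a ratio of 0.160 (0.151 to 0.170). Col3a1, whose product alone makes collagen III (chr1:45311538-45349706, plus strand), was at 20.5 CPM in Cxcr4+/1013 and 116 CPM in Cxcr4+/+, a ratio of 0.177 (0.170 to 0.185). Col1a2, the other chain of collagen I, was at 18.2 CPM in Cxcr4+/1013 and 78.4 CPM in Cxcr4+/+, a ratio of 0.232 (0.221 to 0.243). Of the 11 fibrillar chains 6 were at least 1.5-fold lower, the other ones being Col2a1 (3.58 CPM in Cxcr4+/1013 and 7.46 CPM in Cxcr4+/+), Col5a1 (3.63 CPM in Cxcr4+/1013 and 7.09 CPM in Cxcr4+/+) and Col5a3 (1.61 CPM in Cxcr4+/1013 and 2.56 CPM in Cxcr4+/+). Col11a1, a minor chain of cartilage fibres, was the 1 fibrillar chain with a ratio above 1, at 51.4 CPM in Cxcr4+/1013 and 46.6 CPM in Cxcr4+/+.

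Collagen IV, the network of basement membranes, divided by chain. Col4a1 was at 33.2 CPM in Cxcr4+/1013 and 89.3 CPM in Cxcr4+/+, a ratio of 0.372 (0.359 to 0.386), and Col4a2 at 21.8 CPM in Cxcr4+/1013 and 50.3 CPM in Cxcr4+/+. Col4a5 was at 16.6 CPM in Cxcr4+/1013 and 36.3 CPM in Cxcr4+/+, and Col4a6 at 9.29 CPM in Cxcr4+/1013 and 25.1 CPM in Cxcr4+/+. These 4 were at least 1.5-fold lower in Cxcr4+/1013, whereas Col4a3 and Col4a4, the chains that join Col4a5 in the kidney, were not. Col4a3 was at 1.54 CPM in Cxcr4+/1013 and 1.30 CPM in Cxcr4+/+, and Col4a4 at 4.97 CPM in Cxcr4+/1013 and 5.48 CPM in Cxcr4+/+.

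Collagen VI forms beaded filaments around cells, and its chains divided too. Col6a1 was at 3.66 CPM in Cxcr4+/1013 and 15.3 CPM in Cxcr4+/+, Col6a2 at 2.22 CPM in Cxcr4+/1013 and 7.36 CPM in Cxcr4+/+ and Col6a3 at 2.31 CPM in Cxcr4+/1013 and 9.72 CPM in Cxcr4+/+. Together with Col6a5 (0.293 CPM in Cxcr4+/1013 and 0.715 CPM in Cxcr4+/+) they were at least 1.5-fold lower in Cxcr4+/1013. Col6a4 and Col6a6 were under 1 CPM in both libraries and within 1.5-fold.

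Among the chains with a transmembrane segment Col13a1 was lower, at 2.41 CPM in Cxcr4+/1013 and 8.81 CPM in Cxcr4+/+. The other members of that group, Col17a1, Col23a1 and Col25a1, were within 1.5-fold, with Col23a1 at 57.0 CPM in Cxcr4+/1013 and 72.8 CPM in Cxcr4+/+. Of the 9 collagens that decorate fibres (the FACIT group) Col16a1 alone was past 1.5-fold, at 2.01 CPM in Cxcr4+/1013 and 4.10 CPM in Cxcr4+/+. Col15a1, a basement membrane collagen with a cleavable end fragment, was at 3.57 CPM in Cxcr4+/1013 and 14.6 CPM in Cxcr4+/+. Col18a1, its relative that releases endostatin, was within 1.5-fold, at 23.0 CPM in Cxcr4+/1013 and 31.3 CPM in Cxcr4+/+. Col7a1, the anchoring fibril collagen, was at 0.460 CPM in Cxcr4+/1013 and 1.45 CPM in Cxcr4+/+, and Col26a1 at 7.05 CPM in Cxcr4+/1013 and 14.2 CPM in Cxcr4+/+, both past 1.5-fold. Col8a1 and Col8a2, short-chain network collagens, were within 1.5-fold, and so was Col28a1, at 2.40 CPM in Cxcr4+/1013 and 1.86 CPM in Cxcr4+/+. In all 6 of the 54 members had a ratio above 1.

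The laminins summed to 112 CPM in the Cxcr4+/1013 library and 165 CPM in the Cxcr4+/+ library, a ratio of 0.677 (0.662 to 0.692), where the collagens had a ratio of 0.501 (0.495 to 0.506). Lama1, Lama2, Lama4, Lamb2 and Lamc3 were at least 1.5-fold lower. The lowest ratio of a laminin was that of Lamc3, at 1.36 CPM in Cxcr4+/1013 and 5.41 CPM in Cxcr4+/+, a ratio of 0.252 (0.212 to 0.299). Lamb1 and Lamc1, the beta and gamma chains of most early laminins, were within 1.5-fold. Lamb1 was at 22.8 CPM in Cxcr4+/1013 and 28.2 CPM in Cxcr4+/+, and Lamc1 at 30.2 CPM in Cxcr4+/1013 and 37.5 CPM in Cxcr4+/+.

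**Figure D1:**
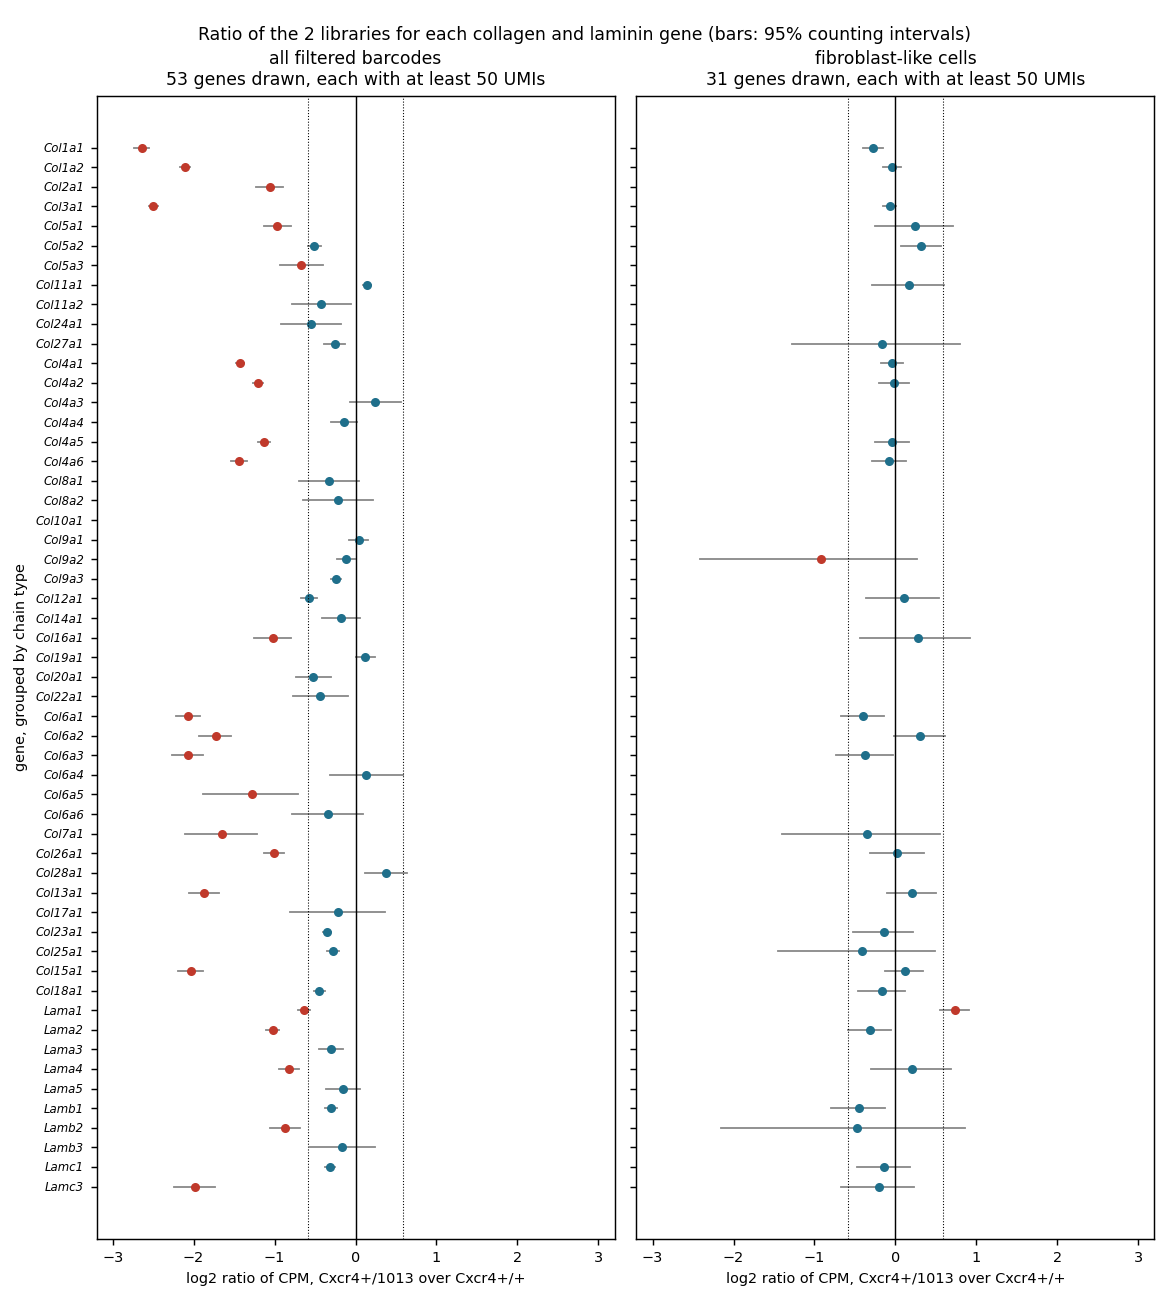
Log2 ratio of CPM, Cxcr4+/1013 over Cxcr4+/+, for each collagen and laminin gene with at least 50 UMIs (points) with its 95% counting interval (bars), over all filtered barcodes on the left (53 genes drawn) and within fibroblast-like cells on the right (31 genes). Dotted lines mark 1.5-fold and red points lie past it, 24 on the left, all lower, and 2 on the right, 1 on either side.

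Several cell classes, some of them rich in these transcripts, differed in share between the libraries. Fibroblast-like cells were 20 of the 8194 Cxcr4+/1013 barcodes (0.244%, exact interval 0.149 to 0.377%) and 139 of the 8353 Cxcr4+/+ barcodes (1.66%, 1.40 to 1.96%), a ratio of 0.147 (0.0869 to 0.235). The gate asked for 5 of 10 markers. A further 9 Cxcr4+/1013 and 21 Cxcr4+/+ barcodes carried 4, and 2 Cxcr4+/1013 and 11 Cxcr4+/+ cells of the gate carried exactly 5. Mural-like cells were 21 in Cxcr4+/1013 and 42 in Cxcr4+/+, a ratio of shares of 0.510 (0.287 to 0.880), and endothelial-like cells 29 in Cxcr4+/1013 and 46 in Cxcr4+/+, a ratio of 0.643 (0.389 to 1.05). Astroglia-like cells were 532 in Cxcr4+/1013 and 818 in Cxcr4+/+, a ratio of 0.663 (0.593 to 0.740). Other classes had a larger share in Cxcr4+/1013, with a ratio of 1.38 (1.30 to 1.47) for granule neuron-like and 1.34 (1.23 to 1.45) for interneuron-like cells. With 1 library per genotype, the amount of meninges taken and the genotype cannot be told apart.

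Fibroblast-like cells held 8.54% of all collagen and laminin UMIs of the Cxcr4+/1013 library and 34.9% of those of the Cxcr4+/+ library. Mixed barcodes, which carried markers of cells of more than 1 lineage, numbered 39 in Cxcr4+/1013 and 83 in Cxcr4+/+ and held 8.61% in Cxcr4+/1013 and 12.4% in Cxcr4+/+. Most Col3a1 UMIs lay in these groups, 50.4% in Cxcr4+/1013 and 70.0% in Cxcr4+/+ in fibroblast-like cells and 39.3% in Cxcr4+/1013 and 20.3% in Cxcr4+/+ in mixed barcodes. Col4a1 was spread more widely, with 12.6% in Cxcr4+/1013 and 35.9% in Cxcr4+/+ in fibroblast-like cells, 15.6% in Cxcr4+/1013 and 8.08% in Cxcr4+/+ in endothelial-like cells and 16.1% in Cxcr4+/1013 and 9.44% in Cxcr4+/+ in astroglia-like cells.

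With fibroblast-like and mixed barcodes left out, the members summed to 458 CPM in Cxcr4+/1013 and 567 CPM in Cxcr4+/+, a ratio of 0.807 (0.798 to 0.816). Of 54 members 13 were then at least 1.5-fold lower, Col1a1, Col1a2, Col3a1, Col4a1 and Col4a2 among them, where 7.13% of genes differed that much in either direction. Leaving out only the fibroblast-like cells gave a ratio of 0.731 (0.723 to 0.739) and 22 lower members, where 8.17% of genes differed that much in either direction.

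**Figure D2:**
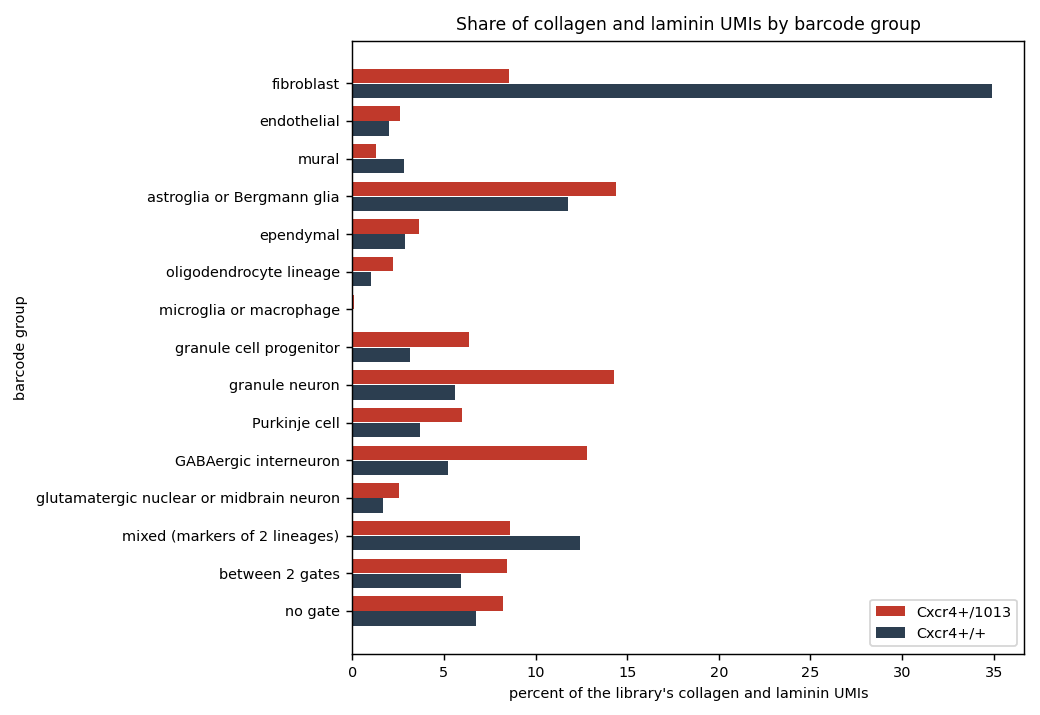
Share of each library's collagen and laminin UMIs (horizontal axis, percent) by barcode group, Cxcr4+/1013 above Cxcr4+/+ in each pair of bars. Fibroblast-like cells held 8.54% in Cxcr4+/1013 and 34.9% in Cxcr4+/+, and granule neuron-like cells 14.3% in Cxcr4+/1013 and 5.63% in Cxcr4+/+.

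Inside the fibroblast-like cells the libraries were close. The members summed to 17951 CPM in Cxcr4+/1013 and 18610 CPM in Cxcr4+/+ fibroblast-like cells, a ratio of 0.965 (0.938 to 0.991). Of the 55 members 31 had at least 50 UMIs, 1 was at least 1.5-fold higher and 1 lower, where 10.4% of the 7067 genes compared in these cells were that much higher, 9.92% that much lower and 20.3% either. The median log2 ratio of the 31 was -0.07, against 0.03 over all genes. All cells of both libraries had a Col3a1 UMI, also after each cell was thinned to 2000 UMIs. Of the class that should lack the gene, 1.41% of Cxcr4+/1013 and 3.17% of Cxcr4+/+ microglia-like cells had one before thinning. Median depth was 15378.5 UMIs in Cxcr4+/1013 and 15839 UMIs in Cxcr4+/+ fibroblast-like cells, and 7921 UMIs in Cxcr4+/1013 and 7401 UMIs in Cxcr4+/+ microglia-like cells. The 10 mural markers summed to 785 CPM in Cxcr4+/1013 and 1268 CPM in Cxcr4+/+ fibroblast-like cells. The highest single marker of that list stood at 636 CPM in Cxcr4+/1013 and 1050 CPM in Cxcr4+/+. The 10 astroglia markers summed to 2582 CPM in Cxcr4+/1013 and 1897 CPM in Cxcr4+/+, of which 1 marker gave 2029 CPM in Cxcr4+/1013 and 1428 CPM in Cxcr4+/+, with 6 of the 10 detected in Cxcr4+/1013 and 9 in Cxcr4+/+. The 8 interneuron markers summed to 85.6 CPM in Cxcr4+/1013 and 22.1 CPM in Cxcr4+/+, with all 8 detected in each, and Pax2 was at 33.6 CPM in Cxcr4+/1013 and 1.35 CPM in Cxcr4+/+, a ratio of 24.9 (6.57 to 139). The part of these lists in the results on fibroblast-like cells was not tested.

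Col3a1 led these cells, at 3984 CPM in Cxcr4+/1013 and 4188 CPM in Cxcr4+/+, a ratio of 0.951 (0.897 to 1.01). Col1a2 was at 2441 CPM in Cxcr4+/1013 and 2511 CPM in Cxcr4+/+. Col1a1 was at 1797 CPM in Cxcr4+/1013 and 2181 CPM in Cxcr4+/+, a ratio of 0.824 (0.755 to 0.897) that lay below 1 but within 1.5-fold. The fibrillar chains were followed by those of the basement membrane. Col4a1 was at 1613 CPM in Cxcr4+/1013 and 1658 CPM in Cxcr4+/+ and Col4a2 at 874 CPM in Cxcr4+/1013 and 883 CPM in Cxcr4+/+. Col4a5 was at 675 CPM in Cxcr4+/1013 and 693 CPM in Cxcr4+/+ and Col4a6 at 648 CPM in Cxcr4+/1013 and 685 CPM in Cxcr4+/+, so that all 4 chains that were lower over all barcodes were within 1.5-fold here. Col15a1 was at 532 CPM in Cxcr4+/1013 and 491 CPM in Cxcr4+/+, Col6a1 at 397 CPM in Cxcr4+/1013 and 526 CPM in Cxcr4+/+ and Col5a2, a chain of the collagen V that sets the width of collagen I fibres, at 504 CPM in Cxcr4+/1013 and 405 CPM in Cxcr4+/+. The cell-surface collagen Col13a1 was at 324 CPM in Cxcr4+/1013 and 281 CPM in Cxcr4+/+.

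The higher gene in fibroblast-like cells was Lama1, the alpha chain of laminin-111 (chr17:67697259-67822647, plus strand). It stood at 917 CPM in 20 Cxcr4+/1013 cells (300 UMIs) and 552 CPM in 139 Cxcr4+/+ cells (1226 UMIs), a ratio of 1.66 (1.46 to 1.89). A single Cxcr4+/1013 cell held 22.0% of those 300 UMIs, and with the cell of most Lama1 UMIs left out of each library the log2 ratio was 0.46, under 1.5-fold. Lama2, the alpha chain of the laminin of muscle and nerve, was at 394 CPM in Cxcr4+/1013 and 491 CPM in Cxcr4+/+. The ratio of Lama1 to Lama2 was 2.33 (1.89 to 2.88) in Cxcr4+/1013 and 1.12 (1.04 to 1.22) in Cxcr4+/+. The lower gene, Col9a2, had 6 UMIs in Cxcr4+/1013 and 77 in Cxcr4+/+, and the interval of its ratio, 0.188 to 1.20, includes 1. Col6a4, Col6a5, Col17a1 and Lama5 had 0 UMIs in fibroblast-like cells of both libraries, which allows a level of up to 9.17 CPM in Cxcr4+/1013 and 1.35 CPM in Cxcr4+/+ (3 counts).

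**Figure D3:**
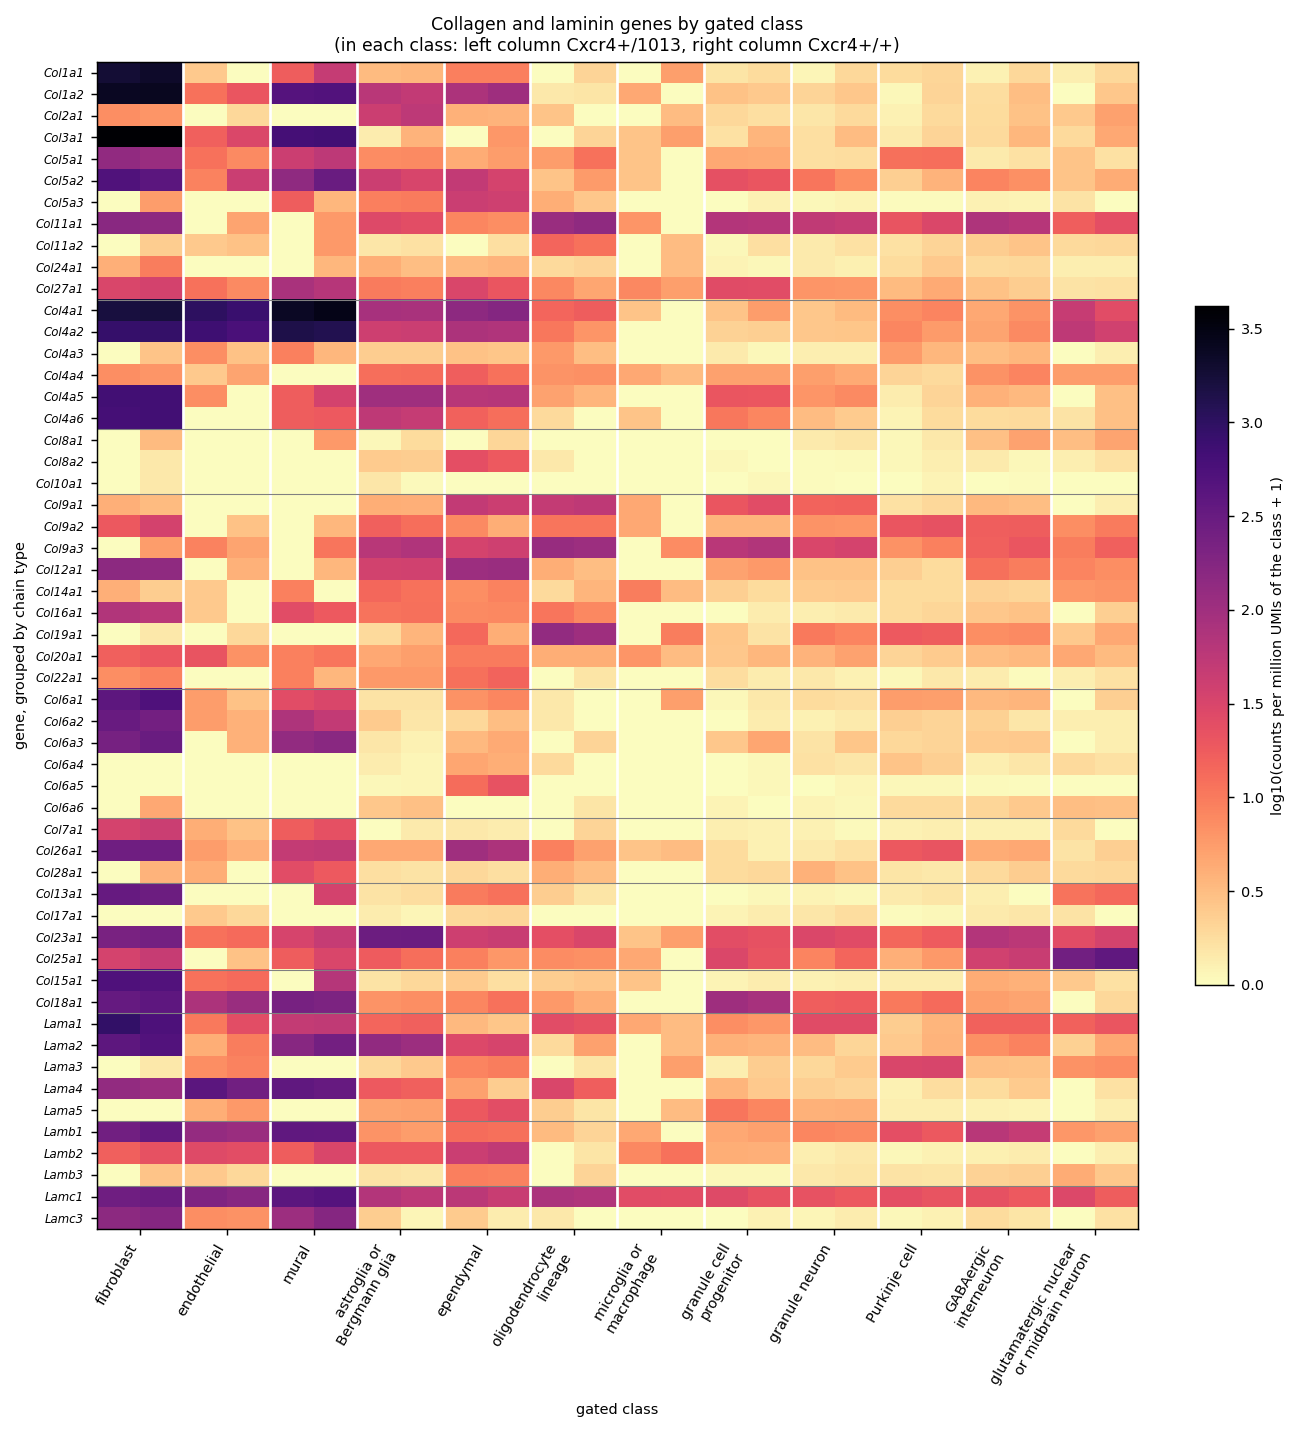
Levels of 54 of the genes (rows, grouped by chain type) in 12 gated classes, as log10 of CPM + 1 (colour), Cxcr4+/1013 in the left and Cxcr4+/+ in the right column of each class. The fibrillar chains Col1a1, Col1a2 and Col3a1 are highest in fibroblast-like cells, and Col25a1 is highest in glutamatergic neuron-like cells, of both libraries.

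Most members had their highest level in the same class in both libraries. Of the 54 members with enough UMIs, 43 did; among those that did not were Col4a3, Col4a4, Col6a6, Col8a1, Col9a1, Col9a2, Col17a1, Col20a1, Col24a1 and Lama4. For 24 of the 43 the highest class was above the second beyond both counting intervals in each library. Those 24 comprised 14 in fibroblast-like cells, 2 in mural-like cells (Col4a1 and Col4a2), 3 in ependymal-like cells (Col6a5, Col8a2 and Lama5), 2 in oligodendrocyte lineage-like cells (Col9a3 and Col19a1), and 1 each in astroglia-like (Col2a1), Purkinje-like (Lama3) and glutamatergic neuron-like cells (Col25a1). In fibroblast-like cells 25 members reached 100 CPM in each library and in mural-like cells 12. In granule neuron-like, Purkinje-like and interneuron-like cells 0 did. Microglia-like cells were lowest, at 96.1 CPM in Cxcr4+/1013 and 97.6 CPM in Cxcr4+/+ over all members, and 24 members had 0 UMIs there in both libraries.

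Both vessel classes carried collagen IV and laminin chains, and the mural-like cells (pericytes and smooth muscle) fibrillar chains as well. Mural-like cells held the highest Col4a1 of any class, 2349 CPM in Cxcr4+/1013 and 2843 CPM in Cxcr4+/+, with Col4a2 at 1406 CPM in Cxcr4+/1013 and 1288 CPM in Cxcr4+/+. Lamc1 was at 406 CPM in Cxcr4+/1013 and 466 CPM in Cxcr4+/+ and Lama4, the alpha chain of vessel laminin, at 366 CPM in Cxcr4+/1013 and 328 CPM in Cxcr4+/+. Col3a1 was at 642 CPM in Cxcr4+/1013 and 684 CPM in Cxcr4+/+ and Col1a2 at 463 CPM in Cxcr4+/1013 and 494 CPM in Cxcr4+/+, but Col1a1 at 16.3 CPM in Cxcr4+/1013 and 46.9 CPM in Cxcr4+/+, below both in each library, and 84.2% of its Cxcr4+/+ UMIs there were in 1 cell. Of 12 members compared in mural-like cells 0 were higher and 3 lower past 1.5-fold, where 9.44% of genes were that much higher, 11.3% that much lower and 20.7% either. Col5a2 was at 138 CPM in Cxcr4+/1013 and 304 CPM in Cxcr4+/+, a ratio of 0.455 (0.257 to 0.759). The other two, Lama2 and Lamc3, had intervals that include 1. Fibroblast markers moved the same way, Dcn standing at 16.3 CPM in Cxcr4+/1013 and 197 CPM in Cxcr4+/+. All 10 of them summed to 382 CPM in Cxcr4+/1013 and 716 CPM in Cxcr4+/+ mural-like cells, with 6 of the 10 detected in Cxcr4+/1013 and 9 in Cxcr4+/+, and Lum at 0 CPM in Cxcr4+/1013. Their part in the result was not tested.

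Endothelial-like cells had Col4a1 at 1008 CPM in Cxcr4+/1013 and 797 CPM in Cxcr4+/+ and Col4a2 at 729 CPM in Cxcr4+/1013 and 580.2 CPM in Cxcr4+/+. Lamc1 was at 194 CPM in Cxcr4+/1013 and 162 CPM in Cxcr4+/+ and Lamb1 at 126 CPM in Cxcr4+/1013 and 109.7 CPM in Cxcr4+/+, while Col3a1 was at 15.4 CPM in Cxcr4+/1013 and 28.9 CPM in Cxcr4+/+. Lama4 was higher, at 408 CPM in Cxcr4+/1013 and 256 CPM in Cxcr4+/+, a ratio of 1.60 (1.34 to 1.90). It was the 1 of 6 members compared past 1.5-fold, where 9.62% of genes were that much higher, 5.83% that much lower and 15.5% either. The cell of most Lama4 UMIs held 18.1% of them in Cxcr4+/1013 and 12.8% in Cxcr4+/+, and without those cells the log2 ratio was 0.65, in place of 0.67.

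Ratios between the transcripts of partner chains differed between the classes. Collagen IV of vessels is a trimer with more alpha-1 than alpha-2 chains. The ratio of Col4a1 to Col4a2, whose first bases overlap, was 1.85 (1.60 to 2.14) in Cxcr4+/1013 and 1.88 (1.78 to 1.99) in Cxcr4+/+ fibroblast-like cells. It was 1.38 (1.23 to 1.56) in Cxcr4+/1013 and 1.37 (1.23 to 1.53) in Cxcr4+/+ endothelial-like cells. In glutamatergic neuron-like cells it was 0.863 (0.689 to 1.08) in Cxcr4+/1013 and 0.673 (0.496 to 0.907) in Cxcr4+/+, below that of fibroblast-like cells in both libraries. In mural-like cells it was 1.67 (1.38 to 2.03) in Cxcr4+/1013 and 2.21 (1.99 to 2.45) in Cxcr4+/+, and in Purkinje-like cells 0.873 (0.664 to 1.15) in Cxcr4+/1013 and 1.58 (1.17 to 2.13) in Cxcr4+/+, so that in the last class the intervals of the libraries did not overlap.

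Col4a5 and Col4a6 form another head-to-head pair, on the X chromosome, with RefSeq starts 1343 bases apart. Their ratio was 1.04 (0.859 to 1.26) in Cxcr4+/1013 and 1.01 (0.943 to 1.09) in Cxcr4+/+ fibroblast-like cells. It was 1.84 (1.64 to 2.08) in Cxcr4+/1013 and 2.17 (1.96 to 2.40) in Cxcr4+/+ astroglia-like cells, and 4.13 (2.77 to 6.33) in Cxcr4+/1013 and 5.42 (3.73 to 8.12) in Cxcr4+/+ ependymal-like cells. Col4a5 was thus level with Col4a6 in fibroblast-like cells and above it in the astroglia-like and ependymal-like cells of both libraries. It was above Col4a6 in neuron classes too, 2.38 times in Cxcr4+/1013 and 4.63 times in Cxcr4+/+ granule neuron-like cells. In progenitor-like cells the ratio was 1.97 in Cxcr4+/1013 and 2.59 in Cxcr4+/+, and in interneuron-like cells 3.44 in Cxcr4+/1013 and 2.71 in Cxcr4+/+. In Cxcr4+/+ mural-like and Purkinje-like cells its interval included 1.

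**Figure D4:**
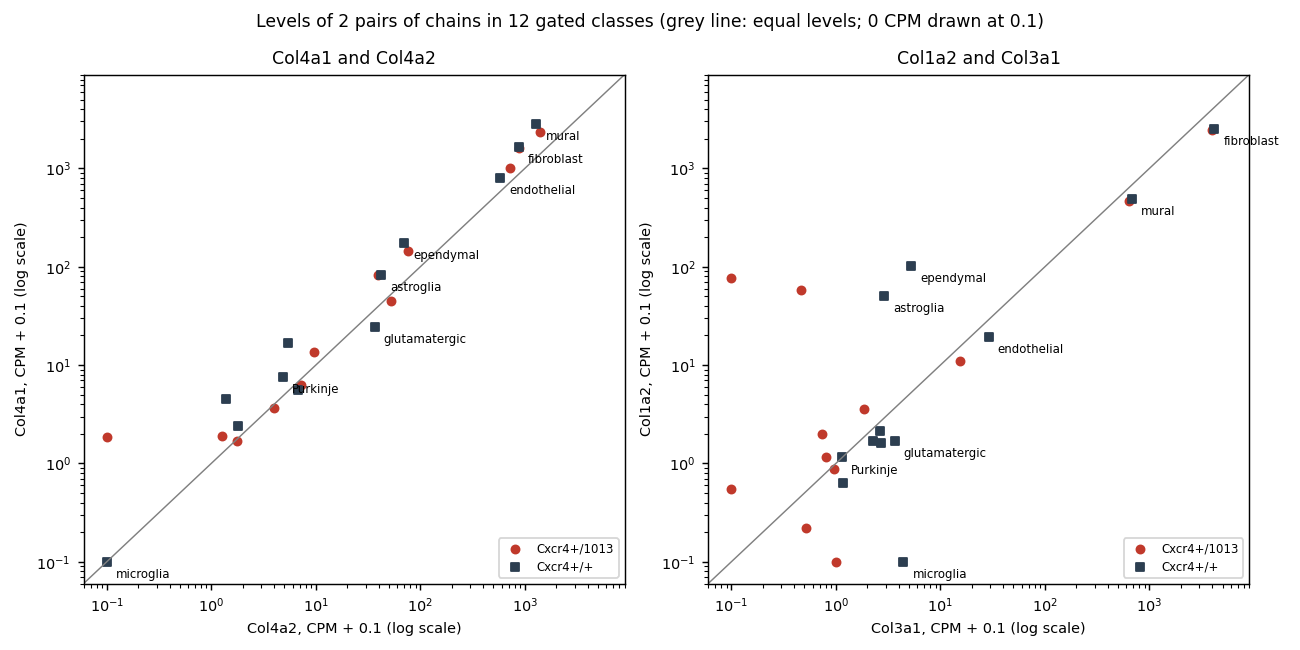
Level of Col4a1 against Col4a2 (left) and of Col1a2 against Col3a1 (right), in CPM + 0.1 on log axes, in 12 gated classes, with Cxcr4+/1013 as red circles and Cxcr4+/+ as dark squares. The ratio of Col4a1 to Col4a2 lies between 0.673 and 3.45 in each class but the microglia-like cells, where Col4a2 is at 0, whereas Col1a2 in astroglia-like and ependymal-like cells (50.4 to 102 CPM) lies far above Col3a1 there (0 to 5.18 CPM).

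Astroglia-like cells, whose marker list includes the Bergmann glia gene Gdf10, were led by Col23a1, a transmembrane collagen (chr11:51289920-51583918, plus strand). It was at 284 CPM in Cxcr4+/1013 and 295 CPM in Cxcr4+/+. It had a UMI in 81.6% of Cxcr4+/1013 and 82.8% of Cxcr4+/+ astroglia-like cells (36.5% in Cxcr4+/1013 and 40.2% in Cxcr4+/+ after thinning), against 1.41% of Cxcr4+/1013 and 3.17% of Cxcr4+/+ microglia-like cells before thinning. Lama2 was at 133 CPM in Cxcr4+/1013 and 105 CPM in Cxcr4+/+ and Col4a5 at 98.4 CPM in Cxcr4+/1013 and 100.04 CPM in Cxcr4+/+. Col4a1 was at 83.0 CPM in Cxcr4+/1013 and 81.9 CPM in Cxcr4+/+ and Lamc1 at 66.7 CPM in Cxcr4+/1013 and 55.4 CPM in Cxcr4+/+, so that both were above 50 CPM in these glia. Col2a1, the main cartilage collagen, was highest in this class, at 40.8 CPM in Cxcr4+/1013 and 54.8 CPM in Cxcr4+/+. Of 32 members compared 0 were past 1.5-fold in either direction, where 4.06% of genes were higher, 1.90% lower and 5.96% either, and no p-value was computed with any tool. Their median log2 ratio was 0.01, against 0.06 over all genes.

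Col1a2 was present in these glia almost without Col1a1 and Col3a1. It stood at 57.8 CPM in Cxcr4+/1013 and 50.4 CPM in Cxcr4+/+ astroglia-like cells, from 471 UMIs in Cxcr4+/1013 and 596 in Cxcr4+/+. Col1a1 was at 2.33 CPM in Cxcr4+/1013 and 2.45 CPM in Cxcr4+/+ and Col3a1 at 0.368 CPM in Cxcr4+/1013 and 2.79 CPM in Cxcr4+/+. In Cxcr4+/+ cells Col1a2 was thus 18.1 times Col3a1 (12.7 to 26.5) in the astroglia-like class and 0.600 times (0.580 to 0.620) in the fibroblast-like class. Ependymal-like cells had Col1a2 at 77.6 CPM in Cxcr4+/1013 and 102 CPM in Cxcr4+/+ and Col1a1 at 8.46 CPM in Cxcr4+/1013 and 8.29 CPM in Cxcr4+/+. Col3a1 had 0 UMIs in Cxcr4+/1013 ependymal-like cells, which allows up to 1.41 CPM, and stood at 5.18 CPM in Cxcr4+/+, where 73.3% of its UMIs were in 1 cell. A Col1a2 UMI was found in 39.3% of Cxcr4+/1013 and 35.3% of Cxcr4+/+ astroglia-like cells (9.16% in Cxcr4+/1013 and 7.76% in Cxcr4+/+ after thinning), against 1.40% of Cxcr4+/1013 and 1.96% of Cxcr4+/+ granule neuron-like cells. The fibroblast marker Dcn was at 0.245 CPM in Cxcr4+/1013 and 1.78 CPM in Cxcr4+/+ astroglia-like cells.

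The beta chain of laminin also differed with class. The ratio of Lamb1 to Lamb2 was 16.6 (6.83 to 52.5) in Cxcr4+/1013 and 16.4 (12.2 to 22.5) in Cxcr4+/+ fibroblast-like cells. It was 0.304 (0.213 to 0.427) in Cxcr4+/1013 and 0.249 (0.181 to 0.338) in Cxcr4+/+ astroglia-like cells. In ependymal-like cells it was 0.278 (0.171 to 0.437) in Cxcr4+/1013 and 0.218 (0.144 to 0.321) in Cxcr4+/+. Lamb1 thus led in the fibroblasts and Lamb2 in both glial classes. Astroglia markers were present in ependymal-like cells too, where the 10 summed to 1967 CPM in Cxcr4+/1013 and 1876 CPM in Cxcr4+/+. Their part in the Col1a2 and laminin beta results was not tested. Interneuron-like cells had Lamb1 at 59.9 CPM in Cxcr4+/1013 and 46.3 CPM in Cxcr4+/+ and Lamb2 at 0.272 CPM in Cxcr4+/1013 and 0.371 CPM in Cxcr4+/+. Lamc3, a gamma chain of few tissues, was above 100 CPM in fibroblast-like and mural-like cells alone, at 147 CPM in Cxcr4+/1013 and 169 CPM in Cxcr4+/+ in the fibroblasts.

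**Figure D5:**
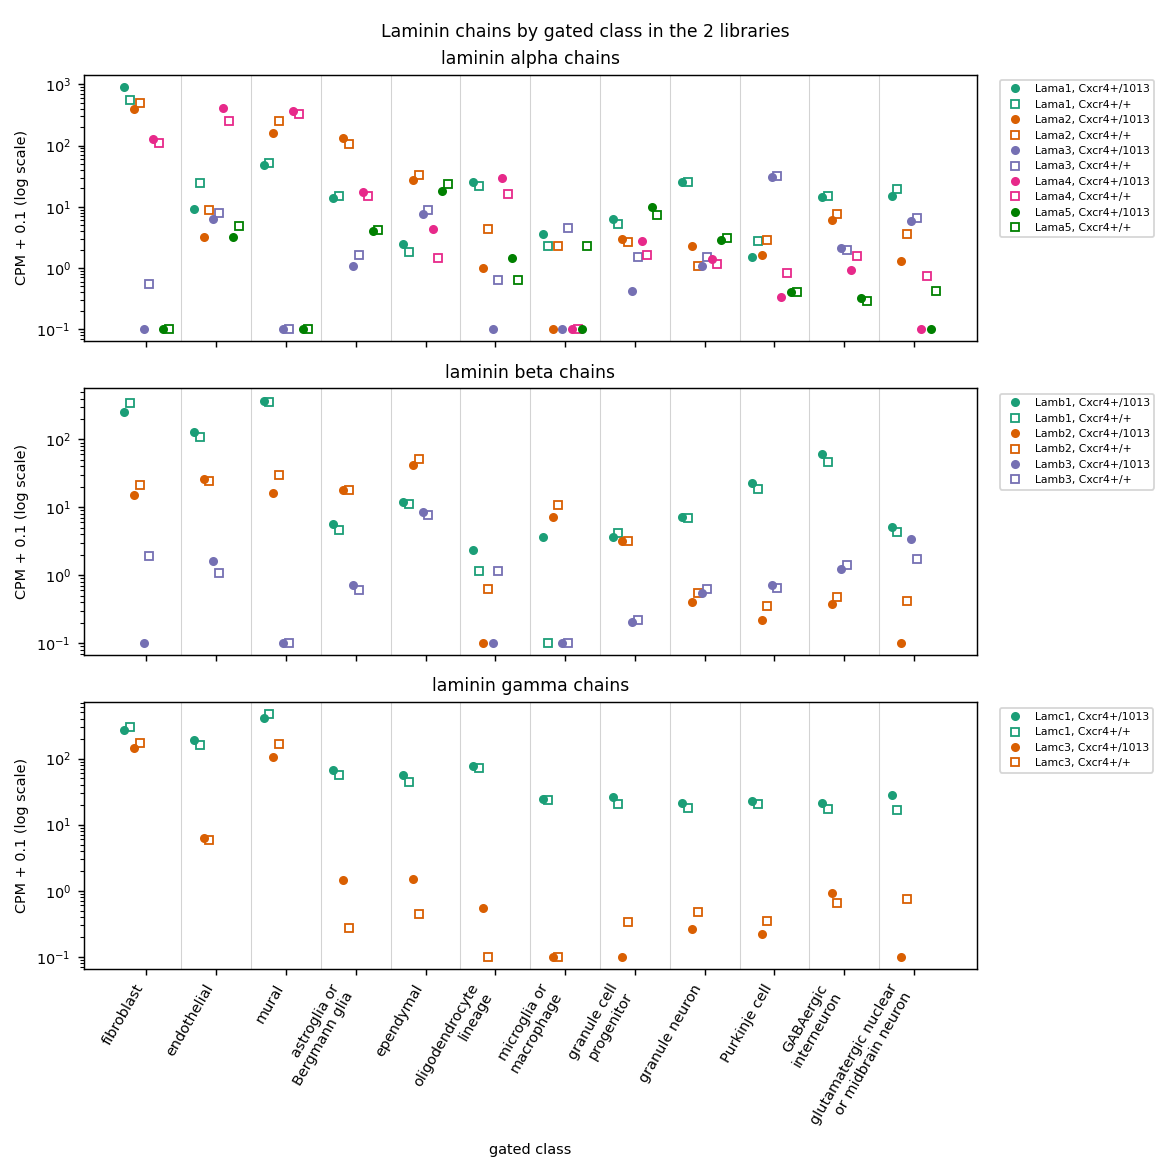
Levels of 10 laminin chains in 12 gated classes, in CPM + 0.1 on a log axis, with filled circles for Cxcr4+/1013 and open squares for Cxcr4+/+ (0 CPM is drawn at 0.1). Lama1 and Lama2 lead in fibroblast-like cells, Lama4 in endothelial-like cells, Lama2 in astroglia-like cells, and Lama3 in Purkinje-like cells at 30.0 CPM in Cxcr4+/1013 and 31.1 CPM in Cxcr4+/+.

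Ependymal-like cells, named for the ciliated cells of the ventricle wall, had Col4a1 at 144 CPM in Cxcr4+/1013 and 176 CPM in Cxcr4+/+ and Col12a1, a fibre-associated collagen, at 105 CPM in Cxcr4+/1013 and 112 CPM in Cxcr4+/+. Col26a1 was at 99.6 CPM in Cxcr4+/1013 and 75.6 CPM in Cxcr4+/+ and Col5a3, a chain of collagen V, at 41.8 CPM in Cxcr4+/1013 and 38.3 CPM in Cxcr4+/+. Lama5, the alpha chain of many epithelial laminins, was at 18.3 CPM in Cxcr4+/1013 and 23.5 CPM in Cxcr4+/+, its highest class in both libraries. Of 23 members compared there 1 was higher and 1 lower, where 3.73% of genes were that much higher, 3.62% lower and 7.35% either. Col27a1, a fibrillar collagen, was higher, at 30.6 CPM in Cxcr4+/1013 and 19.3 CPM in Cxcr4+/+, a ratio of 1.58 (1.09 to 2.30). Of its Cxcr4+/1013 UMIs 26.2% were in 1 cell, and without the cell of most Col27a1 UMIs in each library the log2 ratio was 0.41, under 1.5-fold. Col6a5 was lower, at 11.8 CPM in Cxcr4+/1013 and 20.7 CPM in Cxcr4+/+, a ratio of 0.567 (0.341 to 0.918).

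Oligodendrocyte lineage-like cells had the highest levels of Col19a1, at 130.3 CPM in Cxcr4+/1013 and 102 CPM in Cxcr4+/+, and of Col9a3, at 116 CPM in Cxcr4+/1013 and 106 CPM in Cxcr4+/+, both FACIT collagens. Col11a1 was at 115 CPM in Cxcr4+/1013 and 136 CPM in Cxcr4+/+ and Lamc1 at 77.8 CPM in Cxcr4+/1013 and 71.3 CPM in Cxcr4+/+. Of 10 members compared Lama4 alone was past 1.5-fold, at 29.9 CPM in Cxcr4+/1013 and 16.0 CPM in Cxcr4+/+, a ratio of 1.87 (1.20 to 2.99), where 5.08% of genes were that much higher, 2.36% lower and 7.44% either. The 8 interneuron markers summed to 130.3 CPM in Cxcr4+/1013 and 41.5 CPM in Cxcr4+/+ there, with 8 detected in Cxcr4+/1013 and 7 in Cxcr4+/+. Of these Pax2 was at 21.3 CPM in Cxcr4+/1013 and 1.06 CPM in Cxcr4+/+, and Gad2 at 15.4 CPM in Cxcr4+/1013 and 3.72 CPM in Cxcr4+/+. Their part in the result was not tested.

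Over all members the neuron classes summed lower than the astroglia-like, ependymal-like and oligodendrocyte lineage-like cells. Granule cell progenitor-like cells had Col18a1 at 103 CPM in Cxcr4+/1013 and 83.1 CPM in Cxcr4+/+, and granule neuron-like cells had it at 15.7 CPM in Cxcr4+/1013 and 16.7 CPM in Cxcr4+/+. Granule neuron-like cells were led by Col11a1, at 51.4 CPM in Cxcr4+/1013 and 47.0 CPM in Cxcr4+/+, with Lama1 at 25.7 CPM in Cxcr4+/1013 and 25.5 CPM in Cxcr4+/+. GABAergic interneuron-like cells had Col11a1 at 74.6 CPM in Cxcr4+/1013 and 63.4 CPM in Cxcr4+/+ and Col23a1 at 66.8 CPM in Cxcr4+/1013 and 56.0 CPM in Cxcr4+/+. A Col11a1 UMI was found in 40.9% of Cxcr4+/1013 and 36.7% of Cxcr4+/+ interneuron-like cells (15.0% in Cxcr4+/1013 and 13.0% in Cxcr4+/+ after thinning), against 2 of 71 Cxcr4+/1013 and 0 of 63 Cxcr4+/+ microglia-like cells.

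Purkinje-like cells had Lama3, an alpha chain of epithelial laminins, at 30.0 CPM in Cxcr4+/1013 and 31.1 CPM in Cxcr4+/+. In the 11 other classes it was at most 7.52 CPM in Cxcr4+/1013 and 8.63 CPM in Cxcr4+/+. Lamb3, a beta chain of epithelial laminins, was at 0.605 CPM in Cxcr4+/1013 and 0.557 CPM in Cxcr4+/+. A Lama3 UMI was found in 50.2% of Cxcr4+/1013 and 51.0% of Cxcr4+/+ Purkinje-like cells, and in 5.89% in Cxcr4+/1013 and 8.28% in Cxcr4+/+ after thinning. Their median depth was 36448.5 UMIs in Cxcr4+/1013 and 35119.5 UMIs in Cxcr4+/+, and Lama3 had a UMI in 0% of Cxcr4+/1013 and 3.17% of Cxcr4+/+ microglia-like cells.

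Glutamatergic neuron-like cells were led by Col25a1, a neuronal membrane collagen needed in mice for motor axons to innervate muscle (chr3:130131501-130599877, plus strand). It was at 256 CPM in Cxcr4+/1013 and 364 CPM in Cxcr4+/+, a ratio of 0.704 (0.644 to 0.770), within 1.5-fold. It had a UMI in 49.6% of Cxcr4+/1013 and 55.3% of Cxcr4+/+ glutamatergic neuron-like cells (25.6% in Cxcr4+/1013 and 31.0% in Cxcr4+/+ after thinning), against 2 of 71 Cxcr4+/1013 and 0 of 63 Cxcr4+/+ microglia-like cells. Col4a1 was higher in Cxcr4+/1013, at 45.2 CPM in Cxcr4+/1013 and 24.5 CPM in Cxcr4+/+, a ratio of 1.85 (1.39 to 2.47), and so was Lamc1, at 28.4 CPM in Cxcr4+/1013 and 16.4 CPM in Cxcr4+/+, a ratio of 1.73 (1.22 to 2.48). Col9a3 was lower, at 8.68 CPM in Cxcr4+/1013 and 15.5 CPM in Cxcr4+/+. That made 2 of 9 members higher and 1 lower, where 4.68% of genes were that much higher, 3.30% lower and 7.98% either. With a gate of 6 markers the log2 ratio of Col4a1 was 2.06, in place of 0.88. Col4a2 was at 52.4 CPM in Cxcr4+/1013 and 36.4 CPM in Cxcr4+/+, within 1.5-fold. Marker lists of other cells differed there too. The 10 endothelial markers summed to 11.4 CPM in Cxcr4+/1013 and 16.1 CPM in Cxcr4+/+, with 8 of 10 detected in either library. Also lower in Cxcr4+/1013 were the lists of astroglia (108 CPM against 185 CPM), ependymal cells (99.0 CPM against 141 CPM) and fibroblasts (13.5 CPM against 24.8 CPM). Higher in Cxcr4+/1013 were those of the oligodendrocyte lineage (503 CPM against 420 CPM) and mural cells (7.18 CPM against 5.47 CPM). The 8 Purkinje markers summed to 1156 CPM in Cxcr4+/1013 and 633 CPM in Cxcr4+/+, with 8 detected in Cxcr4+/1013 and 7 in Cxcr4+/+, and the defining Skor2 had 1 UMI in Cxcr4+/1013 and 0 in Cxcr4+/+. The highest single marker of that list stood at 845 CPM in Cxcr4+/1013 and 370 CPM in Cxcr4+/+. The 8 interneuron markers summed to 116 CPM in Cxcr4+/1013 and 162 CPM in Cxcr4+/+, with Gad2 at 3.29 CPM in Cxcr4+/1013 and 19.6 CPM in Cxcr4+/+ and Pax2 at 2.99 CPM in Cxcr4+/1013 and 9.98 CPM in Cxcr4+/+. Their part in the result was not tested. The gate takes in more than 1 kind of neuron, and 122 of its 266 Cxcr4+/1013 cells and 110 of its 262 Cxcr4+/+ cells carried exactly 5 markers.

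In the other neuron classes the members past 1.5-fold were low. In progenitor-like cells 0 of 19 were higher and 1 lower, Col4a1 at 1.80 CPM in Cxcr4+/1013 and 4.46 CPM in Cxcr4+/+, where 4.07% of genes were higher, 0.793% lower and 4.87% either. With high Scrublet doublet scores removed 0 of 17 members compared there were past 1.5-fold. In granule neuron-like cells 4 of 30 were higher (Col4a6, Col5a2, Col28a1 and Lama2) and 4 lower (Col1a2, Col3a1, Col6a3 and Col25a1), where 3.07% of genes were higher, 1.41% lower and 4.48% either. Of these 8, Col5a2 was at 10.1 CPM in Cxcr4+/1013 and 6.25 CPM in Cxcr4+/+ and Col25a1 at 7.37 CPM in Cxcr4+/1013 and 13.7 CPM in Cxcr4+/+, and the rest were under 3 CPM in both libraries. Purkinje-like cells had 2 of 22 higher (Col4a2 and Col4a3) and 5 lower (Col5a2, Col25a1, Col27a1, Lama1 and Lama2), all under 8 CPM, where 2.51% of genes were higher, 2.26% lower and 4.76% either. Of the Col5a2 UMIs of Cxcr4+/1013 Purkinje-like cells 61.9% were in 1 cell, and with a stricter barcode filter (at least 1000 genes, at most 5% mitochondrial UMIs) its log2 ratio was 1.28, in place of -1.13. That filter left 2 of the 7 members still compared past 1.5-fold and gave Col25a1 a log2 ratio of 0.054, and removing high Scrublet scores left 4 of 18. Interneuron-like cells had 0 of 32 higher and 5 lower (Col1a2, Col3a1, Col4a1, Col4a2 and Col8a1), all under 7 CPM, where 2.39% of genes were higher, 2.07% lower and 4.46% either. The stricter filter, and likewise the removal of high Scrublet scores, left 2 of 30. The share of all genes past 1.5-fold was not computed under either of these settings. The counts given for them in these neuron classes can therefore not be set against a background.

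Some of these low genes are the leading genes of the fibroblast-like cells. Col3a1 was at 0.701 CPM in Cxcr4+/1013 and 2.18 CPM in Cxcr4+/+ granule neuron-like cells and 0.860 CPM in Cxcr4+/1013 and 2.54 CPM in Cxcr4+/+ interneuron-like cells. Both were below its level in microglia-like cells, 1.75 CPM in Cxcr4+/1013 and 4.34 CPM in Cxcr4+/+, which rests on 1 UMI in Cxcr4+/1013 and 2 in Cxcr4+/+. Dcn was at 0.393 CPM in Cxcr4+/1013 and 1.19 CPM in Cxcr4+/+ granule neuron-like cells. Free RNA and doublets cannot be told apart from expression at these levels, and 41.5% of the Col3a1 UMIs of Cxcr4+/+ interneuron-like cells were in 1 cell. With the highest Scrublet doublet scores removed, Lama2 in granule neuron-like cells had a log2 ratio of -0.32 in place of 1.17.

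Genes that make, fix and read these chains were followed from lists by role. Over all barcodes, of 20 genes that modify, fold and export collagen chains 0 were higher and 4 lower past 1.5-fold in Cxcr4+/1013 (Serpinh1, Plod1, Fkbp10 and Creb3l1). For this and the following lists, 2.19% of all genes compared were that much higher, 6.92% that much lower and 9.11% either. Serpinh1, the collagen chaperone HSP47, was at 52.0 CPM in Cxcr4+/1013 and 92.7 CPM in Cxcr4+/+. Of 12 genes of procollagen cleavage and cross-linking compared 0 were higher and 2 lower, Pcolce and Loxl3. Pcolce, the enhancer of procollagen C-proteinase, was at 1.55 CPM in Cxcr4+/1013 and 7.51 CPM in Cxcr4+/+. Of 10 other matrix genes 0 were higher and 5 lower, among them Nid1, which links laminin to collagen IV, at 34.5 CPM in Cxcr4+/1013 and 66.9 CPM in Cxcr4+/+, and Sparc, a collagen-binding glycoprotein, at 133 CPM in Cxcr4+/1013 and 248 CPM in Cxcr4+/+. Of 15 receptor genes 0 were higher and 4 lower, with Ddr2, a fibrillar collagen receptor, at 4.67 CPM in Cxcr4+/1013 and 7.14 CPM in Cxcr4+/+. Of 10 turnover genes 0 were higher and 4 lower, the gelatinase Mmp2 at 0.920 CPM in Cxcr4+/1013 and 3.37 CPM in Cxcr4+/+ among them.

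Within fibroblast-like cells those genes were again close, and few passed 1.5-fold, where 10.4% of all genes were that much higher, 9.92% that much lower and 20.3% either. Serpinh1 was at 1121 CPM in Cxcr4+/1013 and 1111 CPM in Cxcr4+/+, Pcolce at 223 CPM in Cxcr4+/1013 and 240.4 CPM in Cxcr4+/+ and Nid1 at 437 CPM in Cxcr4+/1013 and 508 CPM in Cxcr4+/+. Of the 16 modification genes compared 1 was higher (Fkbp14, 64.2 CPM in Cxcr4+/1013 and 41.0 CPM in Cxcr4+/+) and 0 lower, and of 6 cleavage and cross-linking genes 1 was higher (Loxl3, 30.6 CPM in Cxcr4+/1013 and 19.8 CPM in Cxcr4+/+) and 0 lower. Of 8 other matrix genes and 5 receptors 0 were past 1.5-fold, and of 6 turnover genes 0 were higher and 1 lower, Mmp2 at 58.1 CPM in Cxcr4+/1013 and 104 CPM in Cxcr4+/+. On the receiving side, Adgrg1, a receptor for collagen III in the cortex of the mouse, was at 52.3 CPM in Cxcr4+/1013 and 51.3 CPM in Cxcr4+/+ granule neuron-like cells and 81.8 CPM in Cxcr4+/1013 and 73.6 CPM in Cxcr4+/+ astroglia-like cells. Dag1, the laminin receptor dystroglycan, was at 216 CPM in Cxcr4+/1013 and 196 CPM in Cxcr4+/+ astroglia-like cells.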

How the data were processed

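Single-cell RNA data (10x 3′ v3.1) were taken as the counts the authors deposited, UMIs per gene and barcode, whole numbers in the filtered matrices. Per the submitters' processing notes, bcl2fastq 2.20.0.4222 and Cell Ranger 7.2 were named, with the mm10 build. The barcode filter (500 or more genes detected, no more than 10% of UMIs mitochondrial) left 8194 of 9551 in Cxcr4+/1013 and 8353 of 9586 in Cxcr4+/+, with median depths of 13557.5 UMIs in Cxcr4+/1013 and 12101 UMIs in Cxcr4+/+. A barcode joined a class when it carried at least 5 of that class's markers and its share of the list exceeded the next list's by at least 10% of the list. Between the granule cell progenitor and granule neuron lists, which share Barhl1 and Pax6, no margin was asked and ties were left out. Progenitor-like cells carried a median of 6 own markers and 5 of another list in each library. For ependymal-like cells these medians were 10 and 6. Barcodes with 5 markers of a list of another lineage were set aside as mixed. The gating rule was set after the data were seen, and the genes and lists were chosen with earlier results of these data known. Doublets were left in; Scrublet scores were used as an alternative.

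UMIs were summed per library and class and divided by all UMIs of the same cells. With 1 library per genotype there is no test: levels carry exact Poisson, shares of cells exact binomial (Clopper-Pearson) and ratios conditional binomial 95% intervals, which cover counting error only. A gene was compared where the libraries together gave it 50 UMIs or more, and a fold of 1.5 was the size rule. Members were named from the highest level downwards in each class, and for the comparison of libraries by the distance of the ratio's interval from 1; each member past 1.5-fold within a class is also named. The code was checked on simulated data. Alternatives were UMI floors of 20 and none, TMM factors (edgeR 4.0.16 in R 4.3.3, used for scaling only) and median-of-ratios factors, a stricter barcode filter, removal of high Scrublet scores, 6 markers per gate and leaving out the cell of most UMIs. Sums without fibroblast-like, mixed and vascular barcodes were chosen after seeing the data. Python 3.11.15, numpy 2.4.6, scipy 1.17.1, pandas 2.3.3, scanpy 1.11.5 and matplotlib 3.10.9 were used. Gene positions are from GENCODE M21 on GRCm38, to which all 55 IDs matched. Values of 1 member are not reported here; it stays in the sums and counts.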

Additional observations from a re-analysis of the deposited data

Results flagged for a closer look

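A few chains were past 1.5-fold in opposite directions in different classes, each time with a counting interval of the ratio that excluded 1. None of these differences between classes was tested. Col4a1 had a log2 ratio (Cxcr4+/1013 over Cxcr4+/+) of -1.31 in granule cell progenitor-like and -0.61 in interneuron-like cells and of 0.88 in glutamatergic neuron-like cells. Col4a2 stood at 0.60 in Purkinje-like and -0.78 in interneuron-like cells. Col5a2 stood at -1.14 in mural-like, -1.13 in Purkinje-like and 0.69 in granule neuron-like cells. Lama1 stood at 0.73 in fibroblast-like and -0.94 in Purkinje-like cells, and Lama2 at 1.17 in granule neuron-like and -0.85 in Purkinje-like cells. Of the 41 members compared in at least 2 classes these were 5 (12.2%). Of all 15038 genes so compared 270 (1.8%) were past 1.5-fold in opposite directions by the same rule on intervals. Col27a1, higher in ependymal-like and lower in Purkinje-like cells, did not meet the rule on intervals and was not counted. Other settings end the pairs of Lama1 and Lama2 and turn the sign of a Col5a2 value. Without high Scrublet scores no member compared in progenitor-like cells was past 1.5-fold, so the Col4a1 call there was lost too. In interneuron-like cells fewer members were past 1.5-fold under the stricter filter or without high Scrublet scores. Lama2 in granule neuron-like cells had a log2 ratio of -0.32 without high Scrublet scores. Lama1 in fibroblast-like cells had 0.46 without the cell of most Lama1 UMIs in each library. Col5a2 in Purkinje-like cells had 1.28 with the stricter barcode filter, while its main values in mural-like and granule neuron-like cells still lie in opposite directions.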

How the results depend on the processing

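The whole-library count of 24 members apart was 24 or 25 under each other scaling, floor, barcode filter and doublet setting. It was 22 without fibroblast-like cells, 13 also without mixed barcodes and 12 also without mural-like and endothelial-like cells. These last 3 were chosen after seeing the data, and 8.17%, 7.13% and 6.61% of all genes were past 1.5-fold in them. That share was 9.11% in the main setting, 11.9% with a floor of 20 UMIs and 18.1% with no floor. Within classes the counts moved mainly with the UMI floor. With a floor of 20 UMIs they were 5 of 13 members compared in endothelial-like cells (1 of 6 at a floor of 50), 5 of 20 in mural-like (3 of 12), 3 of 40 in astroglia-like (0 of 32), 6 of 37 in ependymal-like (2 of 23), 5 of 18 in oligodendrocyte lineage-like (1 of 10), 12 of 44 in interneuron-like (5 of 32), 12 of 36 in Purkinje-like (7 of 22), 13 of 45 in granule neuron-like (8 of 30) and 6 of 28 in progenitor-like cells (1 of 19). With no floor they were 4 of 51 in fibroblast-like (2 of 31), 20 of 43 in endothelial-like, 11 of 42 in mural-like, 11 of 55 in astroglia-like, 11 of 53 in ependymal-like, 15 of 51 in oligodendrocyte lineage-like, 16 of 55 in interneuron-like, 22 of 55 in Purkinje-like, 20 of 55 in granule neuron-like, 17 of 53 in progenitor-like and 21 of 53 in glutamatergic neuron-like cells (3 of 9). Over all genes the share past 1.5-fold with a floor of 20 was 22.2% in endothelial-like, 33.4% in mural-like, 10.1% in astroglia-like and 12.2% in ependymal-like cells. It was 12.6% in oligodendrocyte lineage-like, 8.3% in interneuron-like, 8.84% in Purkinje-like, 8.02% in granule neuron-like and 8.73% in progenitor-like cells. With no floor that share was 28.5% in fibroblast-like, 31% in endothelial-like, 35.6% in mural-like, 16.7% in astroglia-like and 18.9% in ependymal-like cells. It was then 21.2% in oligodendrocyte lineage-like, 15.7% in interneuron-like, 17.6% in Purkinje-like, 14.8% in granule neuron-like, 17.9% in progenitor-like and 22% in glutamatergic neuron-like cells. TMM or median-of-ratios factors gave 2 in endothelial-like cells. The stricter barcode filter (at least 1000 genes, at most 5% mitochondrial UMIs) gave 1 in astroglia-like, 2 in Purkinje-like and 2 in interneuron-like cells. Removing high Scrublet scores gave 1 in astroglia-like, 0 in progenitor-like, 4 in Purkinje-like and 2 in interneuron-like cells. A gate of 6 markers gave 5 in endothelial-like, 1 in astroglia-like, 2 in progenitor-like, 3 in interneuron-like and 6 in glutamatergic neuron-like cells. No share over all genes was computed for the scaling factors, the stricter filter, the Scrublet removal or the 6-marker gate. The counts under those settings therefore stand without a background. The Purkinje-like share ratio was 0.591 with the stricter filter, against 0.967. Lama2 in granule neuron-like cells turned to a log2 ratio of -0.32 without high Scrublet scores. Col5a2 in Purkinje-like cells turned to 1.28 with the stricter filter and 0.10 without high scores, and Col25a1 there to 0.054 with the stricter filter. The cause was not tested for any of these. Of 318 alternative log2 ratios of the 57 results past 1.5-fold, 290 stayed within the counting interval and 4 changed sign. No paired analysis was possible because there was 1 library per genotype. Fibroblast-like results rest on 20 Cxcr4+/1013 cells, and genes near the floor of 50 UMIs can cross 1.5-fold by counting error.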

Other observations

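Collagen IV chains outside the Col4a1 and Col4a2 pair also divided by class. Col4a3 exceeded Col4a4 by 4.39-fold (2.61 to 7.78) in Cxcr4+/1013 and 2.93-fold (1.56 to 5.82) in Cxcr4+/+ Purkinje-like cells. In interneuron-like cells Col4a4 was the more abundant, with a Col4a3 to Col4a4 ratio of 0.357 (0.248 to 0.506) in Cxcr4+/1013 and 0.336 (0.229 to 0.485) in Cxcr4+/+. Collagen IX, a trimer of the products of Col9a1, Col9a2 and Col9a3 in cartilage, was also uneven: Col9a1 was 0.0523 times Col9a3 in Cxcr4+/1013 and 0.0407 times in Cxcr4+/+ astroglia-like cells, and 0.480 times in Cxcr4+/1013 and 0.430 times in Cxcr4+/+ granule neuron-like cells. In fibroblast-like cells Col6a1 exceeded Col6a2 by 1.27-fold (0.976 to 1.67) in Cxcr4+/1013 and 2.08-fold (1.88 to 2.30) in Cxcr4+/+.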
